A study of Homo sapiens with 12 samples.

Results

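The genes described here are 34 that encode glucose transport, glycolysis, the handling of pyruvate and lactate, and the transcriptional response to low oxygen. They were picked by symbol from a fixed list of names, with no threshold on measured values, and all 34 were found among the 25528 rows of the expression table. They comprise SLC2A1, 15 glycolytic enzymes from hexokinase to pyruvate kinase, 6 genes of lactate and pyruvate fate, 2 enzymes that set fructose bisphosphate signalling to glycolysis, and 10 hypoxia response genes. RNA-seq was performed on HT-29, an established colon adenocarcinoma cell line with mutant APC, so that every group, controls included, carried that mutation. In one arm cells received a lentiviral open reading frame for GFP, the control, or CTNNB1, which encodes beta-catenin, and were collected 2 days after infection. In the other arm cells received a lentiviral hairpin, either the control shNT1 or shAPC against APC, and RNA was taken 1 day after doxycycline (2 µM) was added to induce it. There were 3 libraries in each of the 4 groups. The study asked how raising WNT signalling in these ways alters expression. The labels do not name the promoter that drives the open reading frames, and a single hairpin against APC is listed. Nor do they say whether the libraries of a group came from separate cultures. The p-values below weigh group differences against the spread between libraries, which may be technical, so they may not carry over to new cultures.

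Glycolysis splits glucose into pyruvate, and lactate dehydrogenase turns pyruvate into lactate, which monocarboxylate transporters export. Colon cancer cells run this route at a high rate even with oxygen present. When oxygen is scarce, prolyl hydroxylases no longer mark the HIF alpha subunits for degradation. The stabilised subunits pair with ARNT, bind short DNA elements and raise transcription of many of these same enzymes, along with genes for angiogenesis, pH control and mitophagy. WNT signalling has also been linked to glycolysis in colon cancer, and PDK1 and SLC16A1 have been described as WNT targets there.

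Levels are given in TPM, a measure of transcript abundance scaled for transcript length and library total, so that genes can be compared with each other. Between 14756 and 16186 genes were above 0 per library, and libraries of the same group correlated at 0.9912 to 0.9974 (Pearson, log2(TPM + 1)). The hairpin lowered APC from 16.4 ± 0.80 TPM in shNT1 to 5.99 ± 0.56 TPM in shAPC (SD, n = 3, limma adjusted p = 6e-06). CTNNB1 itself stood at 146 ± 2.9 TPM under GFP against 160 ± 4.2 TPM under CTNNB1 (SD, n = 3), groups that did not overlap but did not pass the test (limma adjusted p = 0.059). Of 10 colon epithelial markers 7 averaged at least 1 TPM, among them EPCAM and the keratins KRT8 and KRT18, while CDX1, CDX2 and CDH17 averaged below 1 TPM. Summed over the 10 markers, the level was 10977 to 11133 TPM in GFP, 12297 to 12385 in CTNNB1, 9264 to 10819 in shNT1 and 8902 to 9812 in shAPC. The part of these differences in the results below was not tested. None of 6 fibroblast or 4 endothelial markers averaged 1 TPM. Of 6 leukocyte markers 2 did, LYZ at 7054 TPM, which epithelial cells also make, and CD14 at 2.45 TPM, while PTPRC averaged 0.0047 TPM and CD3E was listed at 0 in every library. Their sum, nearly all LYZ, was 6467 to 6555 TPM in GFP, 6783 to 7721 in CTNNB1, 6789 to 7087 in shNT1 and 7280 to 8021 in shAPC, apart in both arms. In bulk RNA a fall in the number of cells of a kind and a fall in RNA per cell cannot be told apart.

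The 33 members that reached a mean of 1 TPM were expressed well, with a median level of 40.5 TPM against 20.5 TPM for the 11741 genes tested over all 12 libraries. The member left out was BNIP3, a mitophagy receptor, which was listed at 0 in 7 of 12 libraries and reached at most 0.178 TPM. GAPDH, LDHB, LDHA, PKM and ENO1 were the most abundant members, the lowest of their group means being 970 TPM for ENO1 in shAPC, and PFKFB4, ANKRD37 and PDK3 were the least abundant of those tested. Among the 15 enzymes the GFP group had the highest mean of the 4 groups for 12, and the shAPC group had the lowest mean for 12. Vector, collection day and doxycycline differ between the arms and cannot be told apart from one another in that order. Named pseudogenes in the GENCODE v29 annotation exist for 13 members, most for GAPDH with 62, BNIP3 with 39, PGAM1 with 13 and LDHA with 6. How reads shared with such copies were assigned is not given in the sources used here, so the levels of these members carry that uncertainty.

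**Figure D1:**
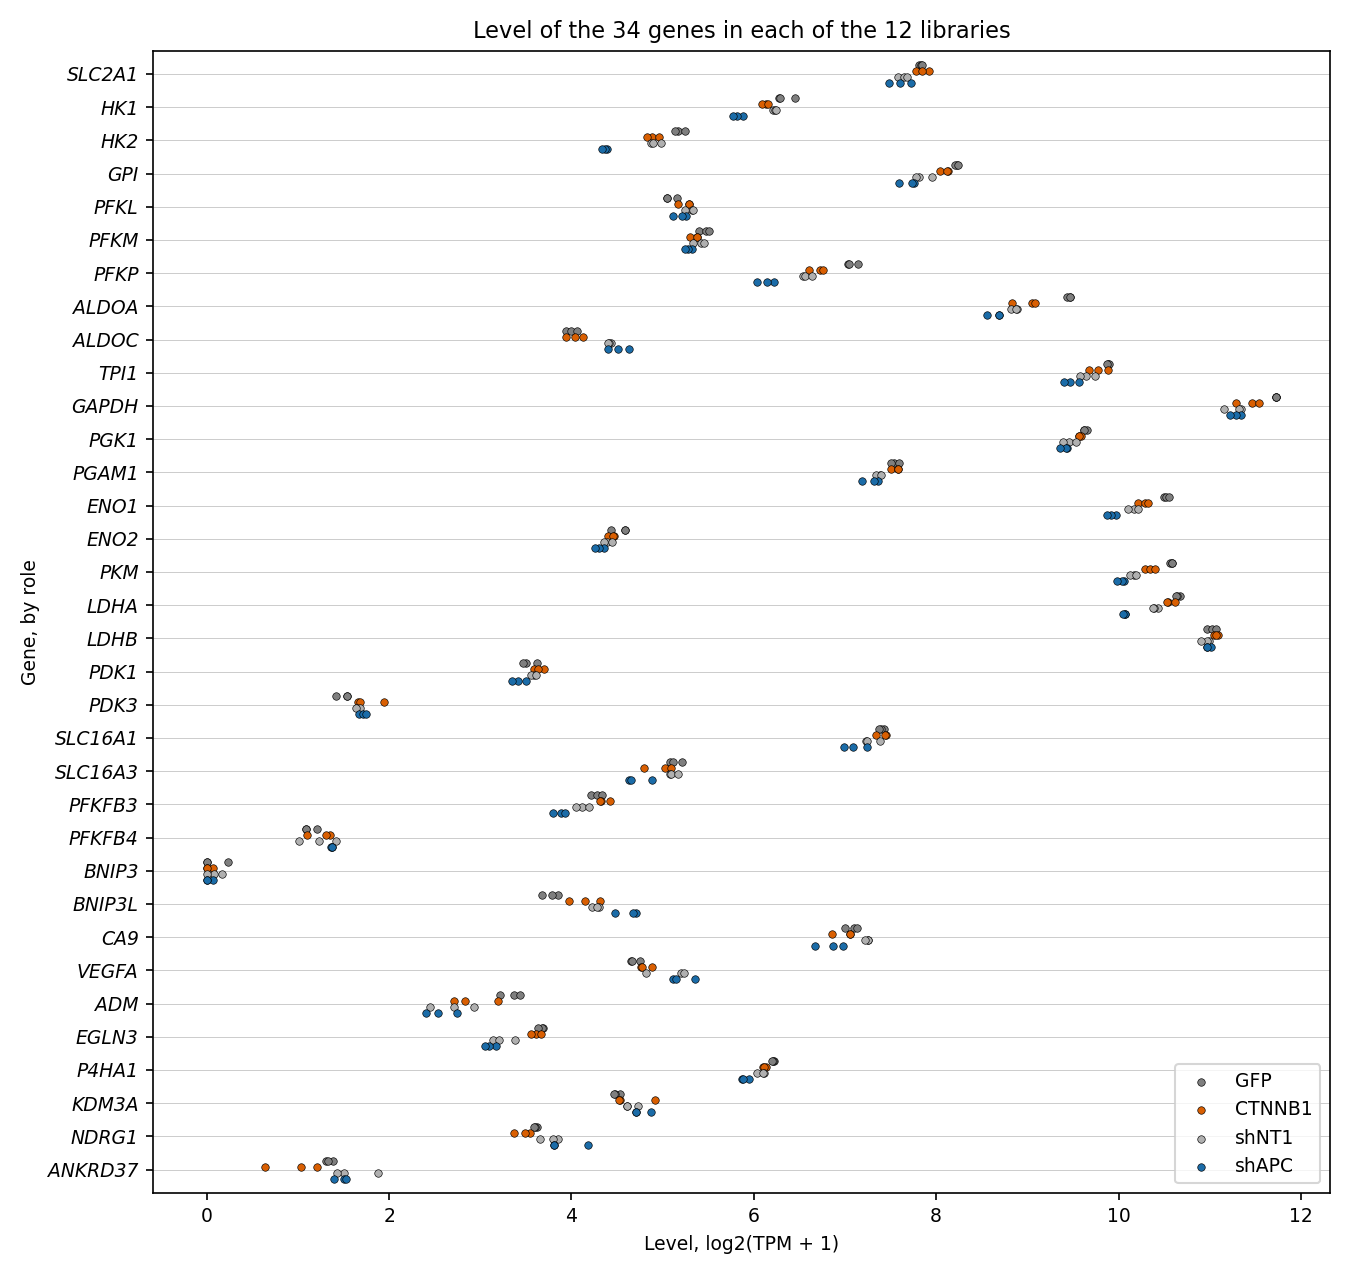
Level of each of the 34 genes in each of the 12 libraries, on the horizontal axis as log2(TPM + 1), with genes by role on the vertical axis and a point per library coloured by group. GAPDH lies farthest to the right, BNIP3 lies at or near 0, and for HK2, PFKP and ENO1 the shAPC libraries lie left of all others.

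Promoter sequence is shown for 6 members to let a reader see matches to short patterns drawn from HIF and TCF/LEF elements. HK2, ALDOA and ENO1 were lower in both arms, LDHA and CA9 were lower after APC knockdown, and PGK1, a classical HIF target, was called in neither arm. Each line gives the 250 bases before the RefSeq transcription start (GRCh38.p14), 5′ to 3′ on the gene's own strand, and the most upstream start was used where a gene has several. Capitals mark ACGTG and GCGTG, cores of the hypoxia response element, and CTTTGNT, a loose form of the TCF/LEF core, on either strand. N stands for any base, so a CTTTGNT match need not be a TCF/LEF site.
HK2, chr2:74833877-74834126, plus strand: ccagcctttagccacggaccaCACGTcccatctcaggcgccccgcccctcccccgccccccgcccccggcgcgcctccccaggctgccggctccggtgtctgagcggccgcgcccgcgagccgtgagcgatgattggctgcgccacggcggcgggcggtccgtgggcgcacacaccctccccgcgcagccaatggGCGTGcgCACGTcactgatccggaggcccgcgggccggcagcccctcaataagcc
ALDOA, chr16:30064029-30064278, plus strand: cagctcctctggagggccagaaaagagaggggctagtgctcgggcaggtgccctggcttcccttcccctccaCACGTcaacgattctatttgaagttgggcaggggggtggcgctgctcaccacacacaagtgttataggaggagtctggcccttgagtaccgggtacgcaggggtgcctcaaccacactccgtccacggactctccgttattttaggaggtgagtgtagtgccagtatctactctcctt
ENO1, chr1:8878687-8878936, minus strand: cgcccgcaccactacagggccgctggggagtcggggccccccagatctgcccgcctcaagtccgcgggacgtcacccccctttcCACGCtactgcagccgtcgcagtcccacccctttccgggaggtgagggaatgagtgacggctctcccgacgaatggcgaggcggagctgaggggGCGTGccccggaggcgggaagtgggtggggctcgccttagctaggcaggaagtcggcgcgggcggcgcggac
LDHA, chr11:18394313-18394562, plus strand: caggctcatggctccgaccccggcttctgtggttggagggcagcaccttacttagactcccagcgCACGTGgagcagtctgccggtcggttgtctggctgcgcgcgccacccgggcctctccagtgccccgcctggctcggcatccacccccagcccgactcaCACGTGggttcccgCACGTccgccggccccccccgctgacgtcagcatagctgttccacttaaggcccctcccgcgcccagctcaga
CA9, chr9:35673678-35673927, plus strand: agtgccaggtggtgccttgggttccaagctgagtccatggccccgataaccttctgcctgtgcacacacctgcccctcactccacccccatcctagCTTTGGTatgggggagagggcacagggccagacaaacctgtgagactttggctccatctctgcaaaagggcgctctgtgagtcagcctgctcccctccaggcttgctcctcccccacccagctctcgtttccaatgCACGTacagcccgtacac
PGK1, chrX:78103998-78104247, plus strand: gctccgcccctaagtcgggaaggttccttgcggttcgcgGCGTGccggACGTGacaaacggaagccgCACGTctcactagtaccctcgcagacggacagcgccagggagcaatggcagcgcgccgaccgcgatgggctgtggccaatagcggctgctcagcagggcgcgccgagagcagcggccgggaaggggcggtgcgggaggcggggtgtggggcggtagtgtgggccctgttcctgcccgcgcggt
The LDHA stretch holds 5 ACGTG matches, because each CACGTG reads as ACGTG on both strands, whereas the ENO1 stretch holds none and 2 of GCGTG. Of these 6, only the CA9 stretch holds CTTTGNT, where it reads CTTTGGT. RefSeq windows from 250 bases before to 50 bases after a start were matched for 30 of the 34 members, 57 windows in all. ACGTG on either strand was in 23 of these 57 windows (40.4%), against 21.4% of the 35114 windows of that length. GCGTG was in 24 windows (42.1%), against 36.5%. CTTTGNT was in 7 windows (12.3%), against 15.4%. An ACGTG match was present for 4 of 8 matched members that were lower with CTNNB1 and 14 of 21 that were not called, and for 8 of 10 that were lower with shAPC and 10 of 19 that were not called. These are matches of letters and say nothing on whether a factor binds there.

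Forced expression of CTNNB1 lowered a group of abundant glycolytic enzymes. Of the 33 members tested, 8 fell and 1 rose at a limma adjusted p under 0.05, against 23.5% of the 11624 genes tested. The falls made up 24.2% of the members, where 7.16% of all genes fell. The single rise was 3.03% of the members, where 16.3% of all genes rose. All 7 glycolysis genes that fell were among the 15 enzymes: HK1, HK2, PFKP, ALDOA, GAPDH, ENO1 and PKM. The eighth was ADM, and the gene that rose was BNIP3L. The median log2 fold change over the members was -0.09, beside 0.06 over all genes. Among genes with a mean of at least 10 TPM, 24.1% of 29 members fell, as did 8.2% of 7877 genes. Libraries of the 2 groups did not overlap for 13 of 24 glycolysis members, 11 of them lower. The same held for 6 of 9 hypoxia response members tested, 4 of them lower. Of all genes 43.2% did not overlap, and 13% did so with the CTNNB1 group lower. When libraries were rescaled by the median ratio, 11 members fell and 1 rose, with GPI, PFKM and P4HA1 added. Of all genes 23.4% were then called, and the share of rises among all calls went from 69.5% to 46.2%. Falls thus made up more of the calls over all genes as well.

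Knockdown of APC lowered 5 of the 15 enzymes, together with LDHA, SLC16A3, PFKFB3, CA9 and P4HA1. Of 33 members, 10 fell and 1 rose, 33.3% in all, against 22.1% of the 11834 genes tested. The falls were 30.3% of the members, where 14.9% of all genes fell, and the rise was 3.03%, where 7.24% of all genes rose. The enzymes that fell were HK1, HK2, PFKP, ALDOA and ENO1, and the gene that rose was BNIP3L. The median log2 fold change over the members was -0.13, beside -0.04 over all genes. Among genes with a mean of at least 10 TPM, 35.7% of 28 members fell, as did 18.4% of 7992 genes. Libraries did not overlap for 16 of the 33 members, 15 of them lower. Of all genes 40.9% did not overlap, and 26.4% did so with the shAPC group lower. Median-ratio scaling left 9 members lower and 1 higher. With it 24.1% of all genes were called, and the share of rises among all calls moved from 32.8% to 44.3%. Quantile normalization gave 9 lower and 2 higher, with 22.9% of all genes called and a share of rises of 49.4%. In the CTNNB1 arm it gave 8 lower and 1 higher, with 21.9% of all genes called and a share of 52.9%.

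HK1, HK2, PFKP, ALDOA and ENO1 fell in both arms, and BNIP3L rose in both. The arms have separate controls. GAPDH, PKM and ADM fell with CTNNB1 and did not pass the test with shAPC. LDHA, SLC16A3, PFKFB3, CA9 and P4HA1 fell with shAPC and did not pass the test with CTNNB1. The remaining 19 tested members were called in neither arm, among them SLC2A1, PGK1, LDHB and VEGFA.

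**Figure D2:**
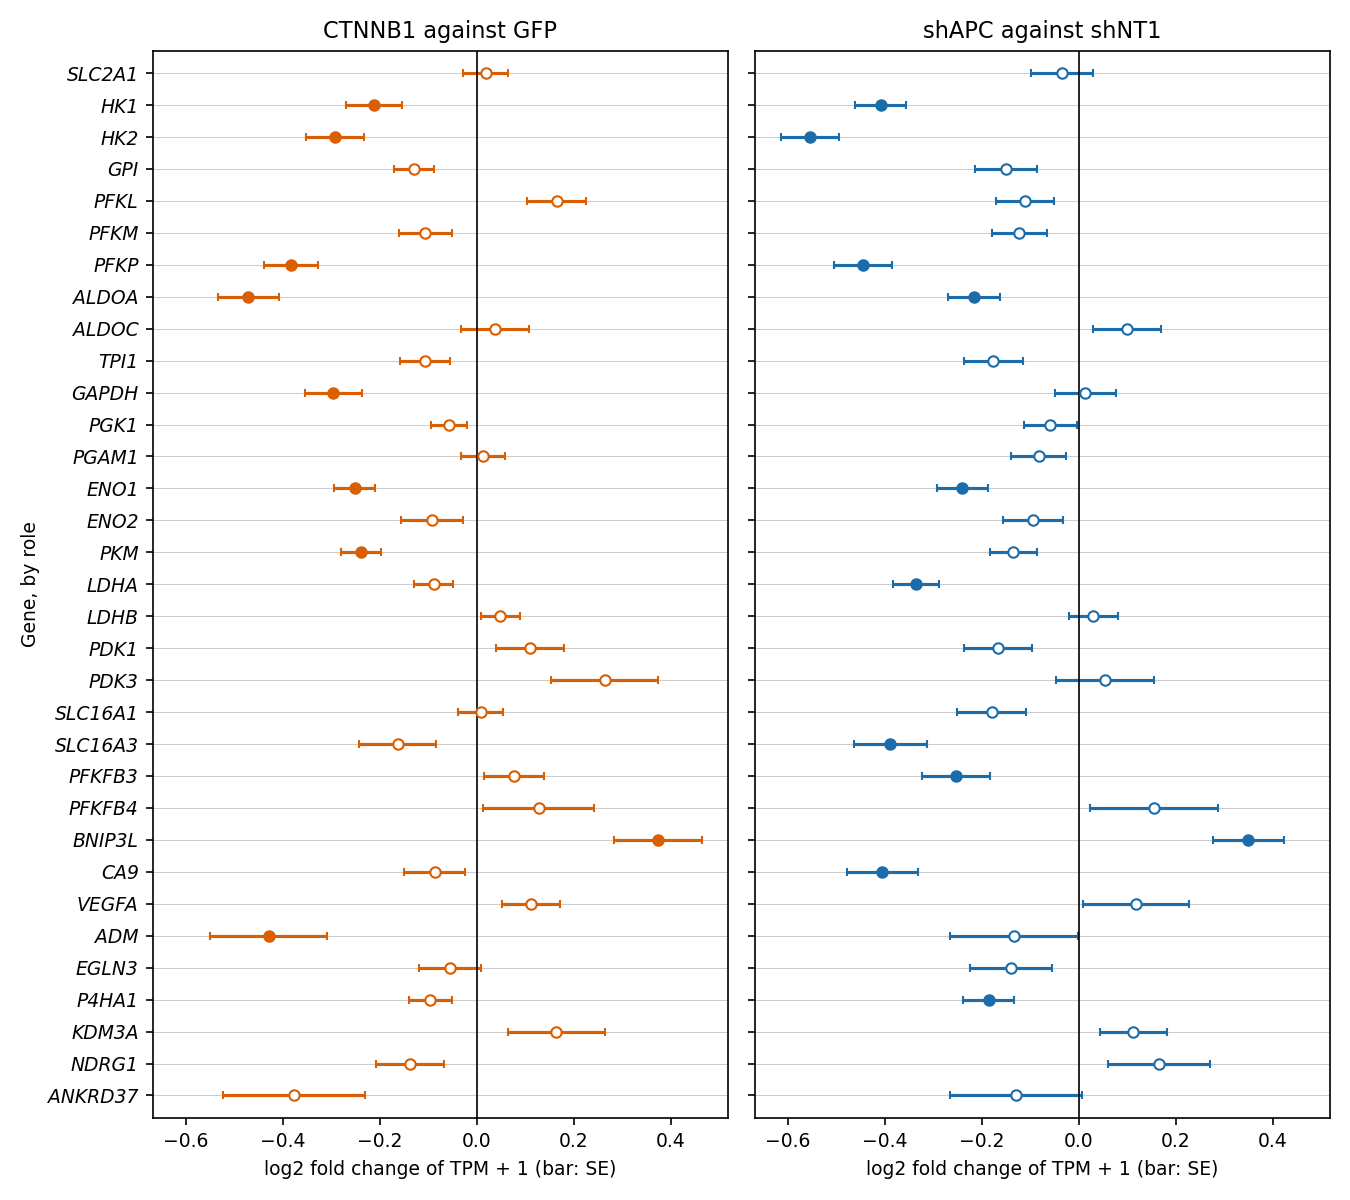
Log2 fold change of TPM + 1 (horizontal axis) for each of the 33 tested members (vertical axis), CTNNB1 against GFP on the left and shAPC against shNT1 on the right, with 3 libraries per group, bars for the SE from limma and filled points for calls at adjusted p under 0.05. All filled points lie left of 0 except BNIP3L, which lies right of 0 in both panels.

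SLC2A1, the widely expressed facilitative glucose transporter, passed the test in neither arm. Glucose uptake itself was not measured. It stood at 224, 227 and 229 TPM in GFP and 219, 241 and 230 TPM in CTNNB1, overlapping ranges. In shNT1 it was 191, 200 and 204 TPM and in shAPC 194, 210 and 178 TPM, again overlapping. The log2 fold changes were 0.02 (95% interval -0.09 to 0.12, limma adjusted p = 0.8) with CTNNB1 and -0.03 (-0.18 to 0.11, limma adjusted p = 0.74) with shAPC. These intervals leave room for small changes in either direction.

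Hexokinases trap glucose in the cell as glucose phosphate, with HK1 the common form and HK2 the inducible form raised in many tumours. HK2 (ENSG00000159399) was 34.9, 34.2 and 36.8 TPM in GFP and 28.5, 27.3 and 30.2 TPM in CTNNB1. It was 28.2, 28.7 and 30.7 TPM in shNT1 and 20.0, 19.6 and 19.1 TPM in shAPC. In both arms every perturbed library lay below every control library. On the log2 scale it fell by 0.29 ± 0.06 (SE, limma adjusted p = 0.0068) with CTNNB1 and by 0.55 ± 0.06 (limma adjusted p = 0.00018) with shAPC, the largest fall among the members in that arm. HK1 (ENSG00000156515) was the more abundant of the pair. It was 76.7, 76.8 and 86.8 TPM in GFP and 69.1, 67.4 and 70.3 TPM in CTNNB1. It was 73.1, 74.4 and 75.0 TPM in shNT1 and 58.1, 55.5 and 53.5 TPM in shAPC, and neither pair of groups overlapped. The log2 fold changes were -0.21 ± 0.06 (SE, limma adjusted p = 0.028) in the first arm and -0.41 ± 0.05 (limma adjusted p = 0.0006) in the second. The call with CTNNB1 was lost without GFP replicate 2 (limma adjusted p = 0.056), GFP replicate 3 (0.1) or CTNNB1 replicate 2 (0.091). Dropping the expression filter or the variance trend lost it too. HKDC1, a hexokinase outside the 34 genes, had a higher mean than HK2 in each group. It was 40.5 ± 1.9 TPM in GFP, 35.9 ± 1.9 in CTNNB1, 42.9 ± 3.3 in shNT1 and 41.8 ± 2.4 in shAPC (SD, n = 3). With CTNNB1 its log2 fold change was -0.17 (limma adjusted p = 0.07), and -0.24 after median-ratio scaling (limma adjusted p = 0.0072).

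Phosphofructokinase commits sugar to glycolysis, and of its 3 genes only PFKP passed the test. PFKP (ENSG00000067057), the platelet-type subunit, was 130, 131 and 141 TPM in GFP and 96.2, 105 and 107 TPM in CTNNB1. It was 91.9, 93.4 and 98.6 TPM in shNT1 and 73.7, 69.5 and 64.7 TPM in shAPC. Perturbed libraries again lay wholly below controls in both arms. On the log2 scale PFKP fell by 0.38 ± 0.06 (SE, limma adjusted p = 0.0012) with CTNNB1 and by 0.44 ± 0.06 (limma adjusted p = 0.00077) with shAPC. PFKL, the liver-type subunit, had log2 fold changes of 0.16 (limma adjusted p = 0.075) and -0.11 (0.22), and PFKM, the muscle-type subunit, of -0.11 (0.18) and -0.12 (0.15). Neither passed the test.

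Aldolase cleaves the sugar bisphosphate, and ALDOA (ENSG00000149925) is its main form in most tissues. ALDOA was 706, 694 and 708 TPM in GFP and 453, 530 and 541 TPM in CTNNB1, with CTNNB1 replicate 1 the lowest library. It was 473, 450 and 470 TPM in shNT1 and 411, 412 and 376 TPM in shAPC. No perturbed library reached its control range in either arm. ALDOA had a log2 fold change of -0.47 ± 0.06 (SE, limma adjusted p = 0.00075) with CTNNB1 and -0.22 ± 0.05 (limma adjusted p = 0.018) with shAPC, and the difference between the arms was -0.26 (limma adjusted p = 0.059), short of the threshold. The shAPC call was lost without shNT1 replicate 1 (limma adjusted p = 0.069) or shAPC replicate 3 (0.072). ALDOC, the brain-enriched form, did not pass in either arm, and nor did GPI or TPI1, the isomerases of this stage. GPI had a log2 fold change of -0.13 (limma adjusted p = 0.051) with CTNNB1, and TPI1 of -0.18 (limma adjusted p = 0.064) with shAPC.

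In the second stage, which returns ATP and NADH, ENO1 fell in both arms. ENO1 (ENSG00000074800), the enolase of most cells, was 1449, 1471 and 1499 TPM in GFP and 1186, 1249 and 1277 TPM in CTNNB1. It was 1153, 1099 and 1185 TPM in shNT1 and 1002, 969 and 938 TPM in shAPC. Again the groups lay apart in both arms. The log2 fold changes were -0.25 ± 0.04 (SE, limma adjusted p = 0.0024) and -0.24 ± 0.05 (limma adjusted p = 0.0095), and their difference was -0.01 (limma adjusted p = 0.92). After median-ratio scaling they were -0.33 and -0.20, and the difference was -0.13 (limma adjusted p = 0.24).

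GAPDH (ENSG00000111640), the dehydrogenase that makes NADH and a common reference gene in expression assays, fell with CTNNB1. It was 3393, 3379 and 3395 TPM in GFP and 2505, 2818 and 2982 TPM in CTNNB1. It was 2591, 2551 and 2286 TPM in shNT1 and 2598, 2502 and 2392 TPM in shAPC. The first pair of groups lay apart and the second overlapped. Its log2 difference was -0.30 ± 0.06 (SE, limma adjusted p = 0.0063) with CTNNB1 and 0.01 (95% interval -0.13 to 0.15, limma adjusted p = 0.9) with shAPC. Under quantile normalization the CTNNB1 value was -0.17 and the call was lost (limma adjusted p = 0.078). PKM (ENSG00000067225), pyruvate kinase, was 1515, 1538 and 1540 TPM in GFP and 1247, 1298 and 1351 TPM in CTNNB1, a log2 fold change of -0.24 ± 0.04 (SE, n = 3, limma adjusted p = 0.0032). It was 1147, 1114 and 1172 TPM in shNT1 and 1064, 1050 and 1012 TPM in shAPC, groups that also lay apart, with a log2 fold change of -0.13 that missed the threshold (limma adjusted p = 0.075). PGK1, PGAM1 and ENO2, the neuronal enolase, did not pass in either arm, with log2 fold changes between -0.09 and 0.01.

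Lactate dehydrogenase A, LDHA (ENSG00000134333), favours lactate production. It was 1638, 1593 and 1587 TPM in GFP and 1487, 1478 and 1567 TPM in CTNNB1. It was 1386, 1337 and 1325 TPM in shNT1 and 1074, 1076 and 1057 TPM in shAPC. Both pairs of groups lay apart, by a narrow margin with CTNNB1 and a wide one with shAPC. Its log2 difference was -0.09 ± 0.04 (SE, limma adjusted p = 0.14) with CTNNB1 and -0.34 ± 0.05 (limma adjusted p = 0.00097) with shAPC. LDHB, the form that favours lactate use, was more abundant, at 2076 ± 71 TPM in GFP (SD, n = 3), and did not pass in either arm. Its log2 fold changes were 0.05 (95% interval -0.04 to 0.14) with CTNNB1 and 0.03 (-0.08 to 0.14) with shAPC.

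Monocarboxylate transporters carry lactate across the membrane, and SLC16A3 is the form linked to export from glycolytic cells. SLC16A3 (ENSG00000141526) was 32.9, 33.1 and 34.9 TPM in shNT1 and 23.9, 28.6 and 24.2 TPM in shAPC, a log2 fold change of -0.39 ± 0.07 (SE, limma adjusted p = 0.0052). With CTNNB1 it was 26.8, 31.5 and 33.1 TPM, overlapping the 32.8, 33.5 and 36.0 TPM of GFP, and the log2 fold change of -0.16 did not pass (limma adjusted p = 0.17). SLC16A1, the partner form described as a WNT target, was 171, 167 and 165 TPM in GFP and 173, 173 and 161 TPM in CTNNB1. It was 150, 151 and 165 TPM in shNT1 and 135, 151 and 126 TPM in shAPC. Its log2 fold changes were 0.01 (95% interval -0.10 to 0.11, limma adjusted p = 0.91) and -0.18 (-0.34 to -0.02, limma adjusted p = 0.098), so no rise was seen.

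PDK1, a kinase that shuts pyruvate dehydrogenase and keeps pyruvate out of mitochondria, is the other member described as a WNT target. It was 10.3, 11.3 and 10.0 TPM in GFP and 12.01, 11.0 and 11.4 TPM in CTNNB1. It was 11.0, 10.8 and 11.3 TPM in shNT1 and 10.3, 9.70 and 9.19 TPM in shAPC. The CTNNB1 groups overlapped, and the shAPC libraries lay below their controls. The log2 fold changes of 0.11 (95% interval -0.05 to 0.27, limma adjusted p = 0.29) and -0.17 (-0.32 to -0.01, limma adjusted p = 0.12) did not pass. PDK3, a related kinase, was between 1.67 and 2.86 TPM and did not pass either.

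PFKFB3 makes the sugar bisphosphate that activates phosphofructokinase. PFKFB3 (ENSG00000170525) was 16.4, 15.6 and 17.3 TPM in shNT1 and 13.7, 14.3 and 12.9 TPM in shAPC, a log2 fold change of -0.25 ± 0.07 (SE, limma adjusted p = 0.028). In the other arm it was 17.6, 18.4 and 19.2 TPM in GFP and 19.1, 18.9 and 20.5 TPM in CTNNB1, a log2 fold change of 0.08 (limma adjusted p = 0.4). The groups lay apart with shAPC and overlapped with CTNNB1. The shAPC call was lost without shNT1 replicate 1 (limma adjusted p = 0.074), shNT1 replicate 3 (0.066), shAPC replicate 1 (0.058) or shAPC replicate 3 (0.1). A replicate block or dropping the expression filter lost it too. PFKFB4, a relative of PFKFB3, was below 2 TPM in every library and was not called.

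The hypoxia response genes outside glycolysis did not share a direction. BNIP3L (ENSG00000104765), a receptor that tags mitochondria for autophagy, was 13.4, 11.8 and 12.8 TPM in GFP and 18.8, 16.8 and 14.7 TPM in CTNNB1. It was 18.7, 17.7 and 18.5 TPM in shNT1 and 25.1, 21.3 and 24.5 TPM in shAPC. All perturbed libraries exceeded all controls of their arm. The log2 fold changes were 0.37 ± 0.09 (SE, limma adjusted p = 0.016) and 0.35 ± 0.07 (limma adjusted p = 0.0077), with a difference of 0.02 between the arms (limma adjusted p = 0.92). The CTNNB1 call was lost without GFP replicate 2 (limma adjusted p = 0.07), GFP replicate 3 (0.053) or CTNNB1 replicate 2 (0.051). Dropping the expression filter lost that call as well.

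CA9 (ENSG00000107159), a cell-surface carbonic anhydrase and one of the most used markers of hypoxia, fell after APC knockdown. It was 152, 151 and 148 TPM in shNT1 and 116, 125 and 101 TPM in shAPC, a log2 fold change of -0.40 ± 0.07 (SE, limma adjusted p = 0.0037). It was 127, 136 and 139 TPM in GFP and 115, 132 and 132 TPM in CTNNB1, and the log2 fold change of -0.09 did not pass (limma adjusted p = 0.35). The shAPC groups lay apart and the CTNNB1 groups overlapped. The difference between the arms was 0.32 ± 0.10 (SE, limma adjusted p = 0.051). VEGFA, the angiogenic factor, was 24.2, 24.5 and 25.9 TPM in GFP and 26.1, 28.4 and 26.4 TPM in CTNNB1, ranges that did not overlap. It was 35.7, 36.8 and 27.3 TPM in shNT1 and 40.0, 33.5 and 34.4 TPM in shAPC, with shNT1 replicate 3 the lowest and the groups overlapping. Its log2 fold changes of 0.11 (95% interval -0.02 to 0.25, limma adjusted p = 0.2) and 0.12 (-0.12 to 0.36, limma adjusted p = 0.47) did not pass.

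ADM (ENSG00000148926), the vasodilator peptide adrenomedullin, was 9.34, 9.82 and 8.30 TPM in GFP and 6.10, 5.56 and 8.14 TPM in CTNNB1, with CTNNB1 replicate 3 just below the control range. ADM fell by 0.43 ± 0.12 on the log2 scale (SE, limma adjusted p = 0.03). The call was lost without GFP replicate 1 (limma adjusted p = 0.09), GFP replicate 2 (0.11), CTNNB1 replicate 1 (0.053) or CTNNB1 replicate 2 (0.1). Dropping the expression filter lost it too. With shAPC the ADM groups overlapped (log2 fold change -0.13, limma adjusted p = 0.51). P4HA1 (ENSG00000122884), a collagen prolyl hydroxylase, was 64.5, 68.3 and 67.8 TPM in shNT1 and 57.3, 60.8 and 57.9 TPM in shAPC, with no overlap. It fell by 0.19 ± 0.05 on the log2 scale (SE, limma adjusted p = 0.032). That call was lost without shNT1 replicate 1 (limma adjusted p = 0.058), shNT1 replicate 2 (0.11), shNT1 replicate 3 (0.059), shAPC replicate 1 (0.072) or shAPC replicate 3 (0.097), and under both rescalings (0.065 and 0.13). A replicate block or dropping the variance trend lost it as well. EGLN3, an oxygen-sensing prolyl hydroxylase, KDM3A, a histone demethylase, NDRG1 and ANKRD37 were called in neither arm. Their log2 fold changes ran from -0.38 for ANKRD37 with CTNNB1 to 0.17 for NDRG1 with shAPC.

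**Figure D3:**
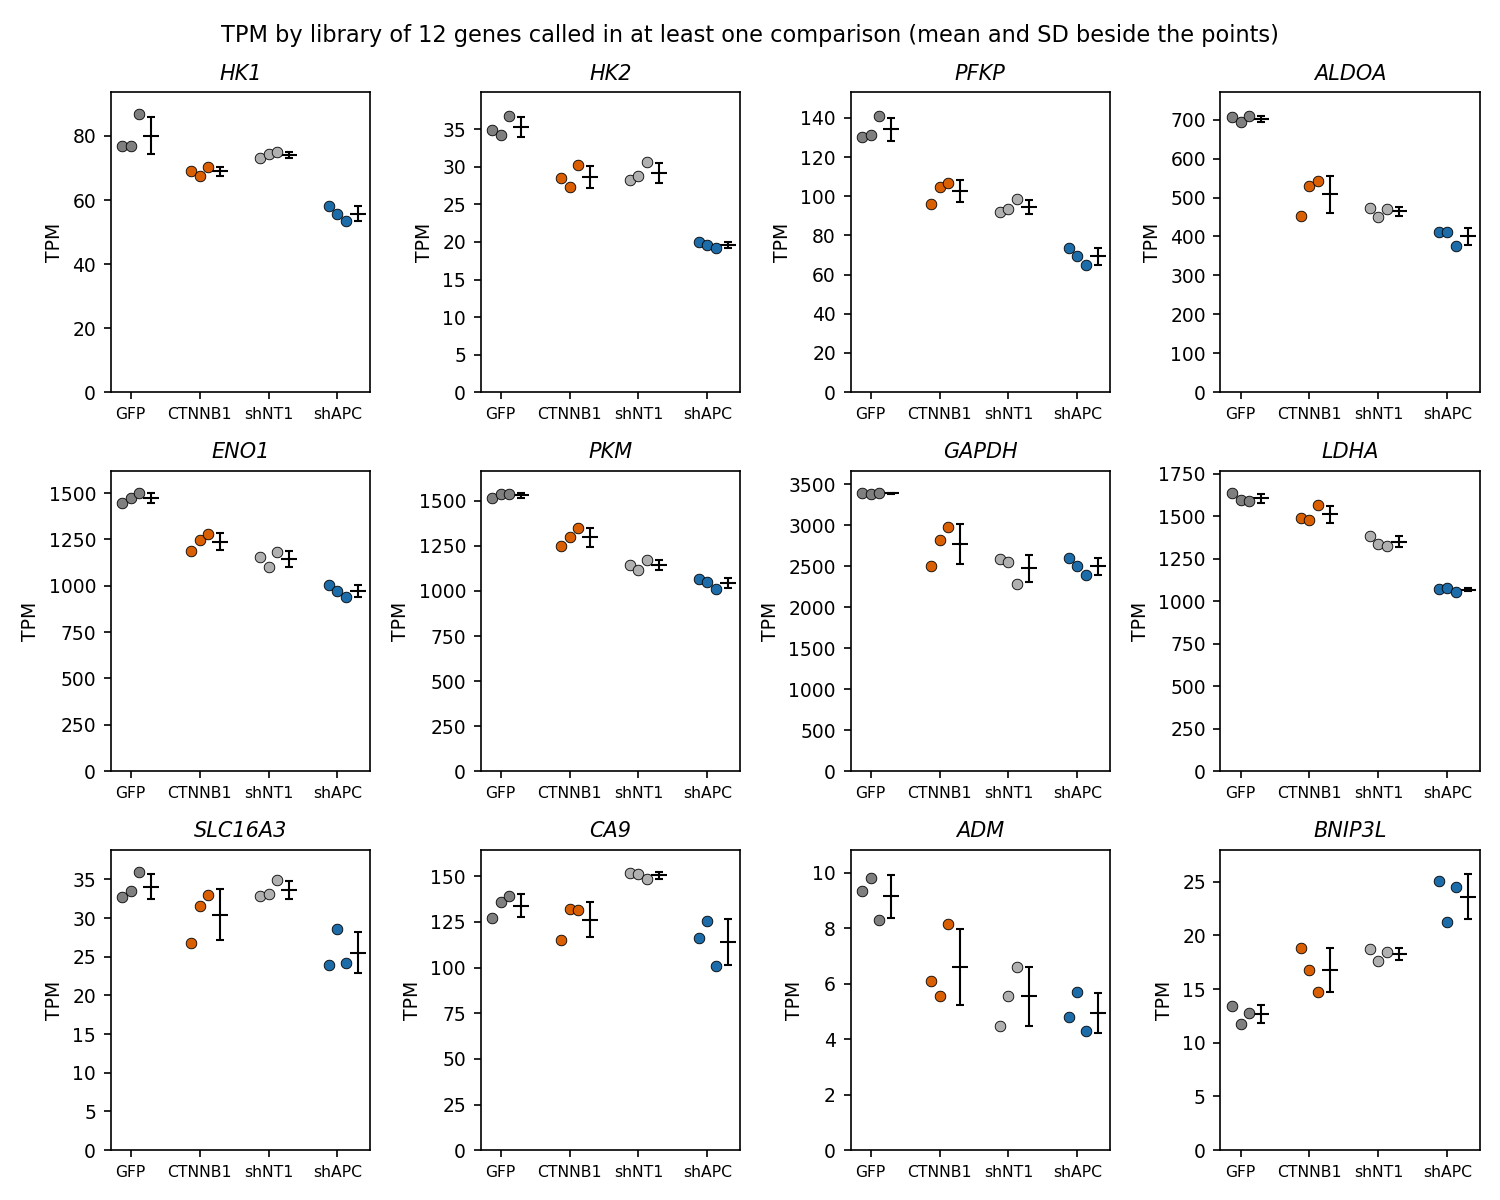
TPM (vertical axis, from 0) by library and group for 12 of the 14 members called in an arm, all but PFKFB3 and P4HA1, with 1 panel per gene, a point per library, and the mean with SD beside the 3 points. HK2 and PFKP step down within each arm without overlap, GAPDH lies apart with CTNNB1 and overlaps with shAPC, and BNIP3L steps up in both.

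Ratios between genes of the same library are free of scaling between libraries and describe how isoenzymes shifted against each other. With 3 libraries against 3, an exact two-sided permutation test cannot go below p = 0.1, so these shares are given by their ranges. PFKP made up 63.8% ± 0.25 of phosphofructokinase TPM in GFP and 57.1% ± 0.99 with CTNNB1, and 54.2% ± 1.0 in shNT1 and 48.5% ± 0.65 with shAPC (SD, n = 3). Neither pair overlapped. The shares of PFKL and PFKM were higher in both arms, also without overlap. The 3 shares are parts of the same total, so a lower PFKP share means a higher combined share of the others and this is no separate result. Mean PFKM was lower in TPM in both arms, 43.0 to 39.9 with CTNNB1 and 41.3 to 37.8 with shAPC. Mean PFKL went from 32.9 to 37.0 TPM with CTNNB1 and from 38.5 to 35.6 TPM with shAPC. Neither gene passed the limma test in either arm. LDHA made up 43.6% ± 1.2 of the 2 lactate dehydrogenases in GFP and 41.3% ± 0.84 with CTNNB1, and 40.5% ± 0.48 in shNT1 and 34.5% ± 0.27 with shAPC (SD, n = 3). Those groups did not overlap either. The share of HK2 in the hexokinase pair overlapped with CTNNB1 (30.6% and 29.4%) and lay apart with shAPC (28.2% and 26.01%). SLC16A3 as a share of both transporters followed that pattern, at 16.9% and 15.3% with overlap and 17.8% and 15.7% without. Summed, the 15 enzymes took 0.968% ± 0.005 of all TPM in GFP and 0.823% ± 0.047 in CTNNB1, and 0.745% ± 0.012 in shNT1 and 0.692% ± 0.027 in shAPC (SD, n = 3). GAPDH weighs most in that sum. Unlike the shares above, the sum is a part of all TPM and depends on the levels of all other genes. The CTNNB1 libraries ran from 0.772% to 0.864%, below the 0.962% to 0.973% of GFP, and the shAPC libraries from 0.663% to 0.717%, below the 0.734% to 0.757% of shNT1.

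**Figure D4:**
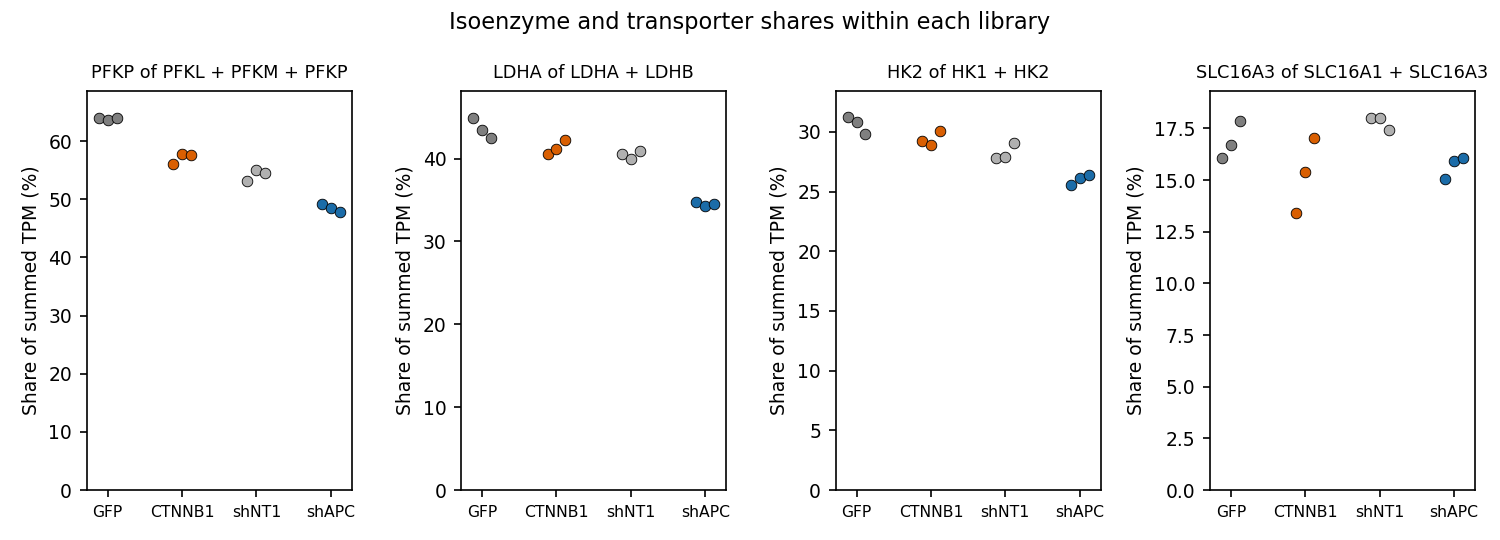
Share of 1 gene in the summed TPM of a named set within each library (percent, vertical axis from 0). Each point is a library, with groups on the horizontal axis. The sets are PFKL, PFKM and PFKP, LDHA with LDHB, HK1 with HK2, and SLC16A1 with SLC16A3. Other genes of these families, such as HKDC1 and SLC16A4, are left out. PFKP and LDHA shares are lower in the perturbed group of both arms without overlap, while HK2 and SLC16A3 shares overlap between GFP and CTNNB1.

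The difference between the arms was tested directly, as the CTNNB1 effect minus the shAPC effect over all 12 libraries. Of 33 members 5 passed (15.2%), close to the 16.1% of all 11741 genes. HK2 differed by 0.26 ± 0.08 (log2, SE, limma adjusted p = 0.039) and LDHA by 0.25 ± 0.06 (limma adjusted p = 0.011), each with the lower estimate for shAPC. PFKFB3 differed by 0.33 ± 0.09 (limma adjusted p = 0.025) and PFKL by 0.28 ± 0.08 (limma adjusted p = 0.038). GAPDH differed by -0.31 ± 0.09 (limma adjusted p = 0.034), having fallen with CTNNB1. The 4 positive differences compare with 13.3% of all genes and the 1 negative difference with 2.76%. The median of this difference over all genes was 0.11 and over the members 0.05, and 82.8% of all calls were positive. After median-ratio scaling the median over all genes was 0.00, 12.2% of all genes passed and 54.7% of calls were positive. Of the 5 only GAPDH then passed (-0.42, limma adjusted p = 0.028), together with ALDOA, which had not passed before. Under quantile normalization, where 11.9% of all genes passed and 56.5% of calls were positive, LDHA alone passed. The count fell to 1 without GFP replicate 1, GFP replicate 2 or shNT1 replicate 3, to 2 without shAPC replicate 3, and to 3 without CTNNB1 replicate 2 or shAPC replicate 2. None of the differences for PKM, ADM, SLC16A3, CA9 and P4HA1, called in a single arm, passed this test.

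Genes that feed or branch from glycolysis were read from lists chosen by function. The pentose phosphate pathway, which draws glucose phosphate off to make NADPH and ribose, had 3 of 7 genes lower with CTNNB1 (42.9%, where 7.16% of all genes were). With shAPC it had 3 lower (42.9%, where 14.9% of all genes were) and 1 higher. TALDO1, transaldolase, went from 1063 ± 9.7 to 756 ± 33 TPM with CTNNB1 and from 747 ± 4.4 to 654 ± 37 TPM with shAPC (SD, n = 3, limma adjusted p = 6.3e-05 and 0.028). TKT, transketolase, fell as well, by 0.23 and 0.18 on the log2 scale (limma adjusted p = 0.0086 and 0.042). PGD, an enzyme of NADPH production, rose by 0.19 with shAPC (limma adjusted p = 0.024).

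Other glycolytic isoenzymes and transporters moved both ways, with 4 of 15 tested higher and 1 lower with CTNNB1, and 2 higher and 4 lower with shAPC. That is 33.3% called, against 23.5% of all genes, and 40.0%, against 22.1%. After median-ratio scaling the CTNNB1 counts were 1 higher and 3 lower. SLC2A12, a glucose transporter, rose in both arms, from 5.17 ± 0.26 to 8.86 ± 1.0 TPM with CTNNB1 and from 6.02 ± 0.53 to 8.18 ± 0.42 TPM with shAPC (SD, n = 3, limma adjusted p = 0.0008 and 0.0097). SLC16A4, a monocarboxylate transporter family member, rose from 11.0 ± 0.93 to 18.2 ± 0.51 TPM with shAPC (SD, n = 3, limma adjusted p = 0.00018). Its rise with CTNNB1 was 0.34 on the log2 scale (limma adjusted p = 0.045) and did not pass after that scaling. BPGM and SLC16A7 each fell by 0.54 with shAPC (limma adjusted p = 0.0012 and 0.004), and PGM1, which links glycogen to glycolysis, by 0.49 (limma adjusted p = 0.0045). With CTNNB1, ENO3 and GPD2 rose by 0.35 and 0.21 and ADPGK fell by 0.18 (limma adjusted p = 0.049, 0.027 and 0.034). The rises of ENO3 and GPD2 did not pass after that scaling. Of 12 genes for entry of pyruvate into mitochondria 1 was called with CTNNB1, PDP1, and 2 with shAPC, PDK2 higher and MPC2 lower. Of 3 gluconeogenesis genes tested, PCK2 alone was called, lower with shAPC.

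The HIF machinery itself had 3 of 12 genes higher and 1 lower with CTNNB1, and 1 higher and 1 lower with shAPC. The 33.3% called with CTNNB1 compares with 23.5% of all genes, and the 16.7% with shAPC with 22.1%. ARNT, the shared partner of the HIF alpha subunits, rose from 15.5 ± 0.72 to 20.2 ± 1.5 TPM with CTNNB1 and from 19.1 ± 0.23 to 24.1 ± 1.2 TPM with shAPC (SD, n = 3, limma adjusted p = 0.0064 and 0.0045). EPAS1, which encodes the second HIF alpha subunit, fell from 23.8 ± 1.3 to 16.6 ± 2.1 TPM with shAPC (SD, n = 3, limma adjusted p = 0.0028). EGLN1, the main oxygen-sensing hydroxylase, and the coactivator CREBBP each rose by 0.31 with CTNNB1 (limma adjusted p = 0.0083 and 0.02), and ELOC fell by 0.19 (limma adjusted p = 0.023). Of 26 other hypoxia-inducible genes tested, 6 rose and 5 fell with CTNNB1 and 2 rose and 5 fell with shAPC, 42.3% and 26.9% called. After median-ratio scaling both arms had 5 higher and 5 lower. CA12, a carbonic anhydrase related to CA9, went from 96.5 ± 1.8 to 66.9 ± 2.1 TPM with CTNNB1 and from 93.1 ± 6.6 to 52.8 ± 3.3 TPM with shAPC (SD, n = 3, limma adjusted p = 7.4e-05 and 4.55e-05). BHLHE41, a circadian repressor, went from 99.7 ± 1.8 to 66.6 ± 1.6 TPM and from 92.9 ± 2.0 to 57.3 ± 2.5 TPM (SD, n = 3, limma adjusted p = 4.2e-05 and 2.6e-05). In both genes every perturbed library lay below its controls. JMJD6 fell in both arms, by 0.48 and 0.26, ZNF395 rose by 0.48 with CTNNB1, and AK4 fell by 0.38 with shAPC (limma adjusted p = 0.0014, 0.04, 0.00092 and 0.0024).

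**Figure D5:**
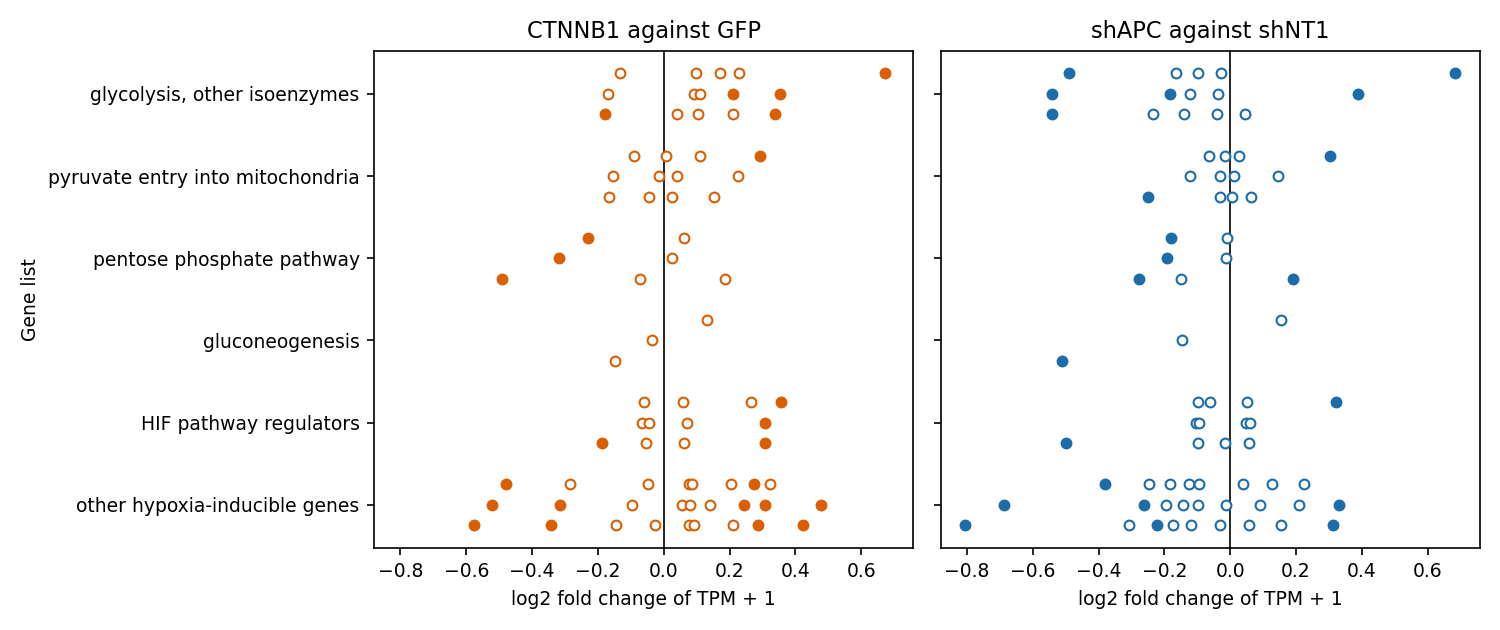
Log2 fold changes of TPM + 1 (horizontal axis) of the tested genes in 6 related lists (vertical axis), CTNNB1 against GFP on the left and shAPC against shNT1 on the right, with a point per gene, filled where called at adjusted p under 0.05 and spread vertically only for legibility. The 3 filled pentose phosphate points in the CTNNB1 panel all lie left of 0, and filled points of the hypoxia-inducible list lie on both sides in both panels.

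The authors' deposited table for CTNNB1 against GFP put 10 members under an adjusted p of 0.05, all lower. It shares 7 with the calls above, adds GPI, PFKM and P4HA1, and leaves out BNIP3L and ADM. The authors' deposited table for shAPC against shNT1 put 12 members under it, 11 lower and 1 higher. It shares 10, adds PKM and PDK1, and leaves out P4HA1. The share of all genes under that threshold in the deposited tables was not worked out, so these counts have no background beside them. No member called both here and in an authors' deposited table had opposite signs in them. Among members called in neither, signs could differ, as for SLC2A1 with CTNNB1 (log2 fold change 0.02 here and -0.05 in the deposited table).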

How the data were processed

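RNA-seq was performed on 12 HT-29 libraries made with an mRNA kit, per the labels' protocols. The submitters' processing notes name STAR 2.7.3a, limma without a version, and the hg38 build. The quantification tool and annotation are not given in the sources used here. The authors deposited TPM for 25528 genes, a unit that keeps no sequencing depth, so depth is unknown and no counting interval was derived. Per the file headers, the authors' deposited tables also include limma output for each arm: log2 fold changes and mean log2 expression, p-values and adjusted p-values. The moderated t and log-odds score in those deposited tables were not used.

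The 6 libraries of an arm were fitted on their own with limma 3.58.1 (R 4.3.3, variance trend) on log2(TPM + 1), keeping genes whose TPM averaged at least 1 there. Adding 1 understates the fold change of weakly expressed genes. A gene was called at a Benjamini-Hochberg adjusted p under 0.05 over all genes tested. The difference between the arms was a contrast in one fit of all 12 libraries. The code was tested on simulated data. The members, the 6 related lists (93 genes, 2 of them in 2 lists) and the tests were chosen with earlier results of these data known. Every member was accounted for by role. Values per library were given for called members and for SLC2A1, HK2, PDK1, LDHA, SLC16A1, CA9 and VEGFA, and up to 4 called genes with the largest fold changes were named per list and arm. HKDC1, which was not called with CTNNB1, was also named, beside HK1 and HK2. The values of 1 called list gene are not reported here. Alternatives were a replicate block, median-ratio scaling, quantile normalization, a pseudocount of 0.1, a filter at an average of 5 TPM, no filter, a fit of all 4 groups together, no variance trend, and leaving out each library in turn. Promoter sequences came from RefSeq (GRCh38.p14), matched by symbol.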

Additional observations from a re-analysis of the deposited data

Results flagged for a closer look

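The response of 5 members differed between forced CTNNB1 expression and APC knockdown in the direct test over 12 libraries (CTNNB1 effect minus shAPC effect, log2, limma adjusted p under 0.05). HK2 differed by 0.26, LDHA by 0.25, PFKL by 0.28 and PFKFB3 by 0.33, and GAPDH differed by -0.31. HK2 was called lower in both arms, and LDHA with shAPC but not with CTNNB1. PFKL was not called in either arm, and its group means were 32.9 and 37.0 TPM in GFP and CTNNB1 and 38.5 and 35.6 TPM in shNT1 and shAPC. Vector, collection day and doxycycline differ between the arms and cannot be told apart from the kind of perturbation. All genes together shifted by a median of 0.11 in this difference, and the share of members that passed (15.2%) was close to that of all genes (16.1%). Of 19 alternative settings, PFKL lost its call in 13, GAPDH in 12, HK2 in 9, PFKFB3 in 6 and LDHA in 1. After median-ratio scaling only GAPDH of these 5 passed, and under quantile normalization only LDHA.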

How the results depend on the processing

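The numbers of members called were 9 with CTNNB1, 11 with shAPC and 5 in the difference between the arms. With CTNNB1 the count was 6 without a filter, 12 after median-ratio scaling, 8 without a variance trend, and 6 to 11 when each library was left out. With shAPC it was 9 to 14 under the other settings and 8 to 12 when each library was left out. In the difference it was 7 with a filter at an average of 5 TPM (ALDOA and CA9 added), 5 with a pseudocount of 0.1, 4 without a variance trend, 3 without a filter, 2 after median-ratio scaling, 1 after quantile normalization, and 1 to 5 when each library was left out. With a replicate block the counts were 9, 9 and 3. The block rests on shared replicate numbers that the labels do not explain. Deviations of same-numbered libraries correlated at 0.22, 0.07 and 0.11 in the CTNNB1 arm and -0.15, -0.01 and -0.21 in the shAPC arm. Those of differently numbered libraries ran from -0.18 to 0.07 and from -0.12 to 0.20. In the CTNNB1 arm each same-numbered value was the highest for its GFP library, for replicate 2 only narrowly (0.070 against 0.069). These values do not settle whether libraries are paired, and the main fits used no block because the labels state no pairing. No called member changed sign under any alternative. Calls held under all 14 alternatives for ALDOA, ENO1, PFKP, HK2 and PKM with CTNNB1, and for LDHA, ENO1, PFKP, BNIP3L, SLC16A3, CA9, HK2 and HK1 with shAPC. The cause of the other changes was not tested. Depth is unknown, and low genes were measured least precisely (for ANKRD37 with CTNNB1 the SE was 0.15).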

Other observations

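Among the related lists, 5 of 15 other glycolytic isoenzymes and transporters differed between the arms, all in the positive direction (CTNNB1 effect minus shAPC effect), where 13.3% of all genes did so. After median-ratio scaling the list had 4 positive and 1 negative call. The genes named here were chosen after their values were seen. SLC16A7, a monocarboxylate transporter, differed by 0.77 and PGM1 by 0.66 (log2, limma adjusted p = 0.0059 and 0.0026). After median-ratio scaling the values were 0.68 and 0.55 and both still passed (limma adjusted p = 0.008 and 0.005). In the pentose phosphate list TALDO1 and PGD differed in the other direction, by -0.30 and -0.26 (limma adjusted p = 0.0095 and 0.01). EPAS1 differed by 0.44 and EGLN1 by 0.40 (limma adjusted p = 0.014 and 0.012). These 4 also passed, with the same signs, after median-ratio scaling.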
